A study of Mus musculus with 4 samples.

Results

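Tissue inhibitors of metalloproteases (TIMPs) are small secreted proteins that bind the active site of matrix metalloproteases (MMPs) and of some ADAM and ADAMTS proteases. The first cysteine of the mature TIMP contacts the zinc ion of the protease, and the second domain can hold a latent MMP. RECK is an unrelated inhibitor that is anchored in the cell membrane. Together they restrain the breakdown of the matrix under and around epithelial cells.

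The genes described here are the 4 mouse TIMP genes Timp1, Timp2, Timp3 and Timp4 together with Reck, taken by symbol from the series count table. All 5 had a row, out of 24907 genes. The libraries were RNA-seq of ASZ001, a mouse basal cell carcinoma line. In the 2 control libraries the doxycycline-inducible vector of the cells was empty, and in the 2 c-FOS libraries it carried c-FOS, a subunit of the transcription factor AP-1. Both kinds of cell received doxycycline. The labels name no c-FOS cells without doxycycline and do not say whether the 2 libraries of a group were separate cultures. The spread behind each p-value is therefore that between these libraries, in large part pooled over all genes tested, and may be technical.

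The libraries held 28405433 to 32465409 counts. Fos, the gene of the vector, was at 0.404 and 0.351 counts-per-million (CPM) in the control and at 296.8 and 313.4 CPM in the c-FOS libraries, so it was high in both libraries labelled c-FOS. The 5 basal keratinocyte markers Krt5, Krt14, Trp63, Col17a1 and Itgb4 were detected in every library, and all 5 passed as lower with c-FOS. In the test across all genes, 67.1% of 12791 genes passed an adjusted p of 0.05, with 33.8% higher and 33.3% lower, so passing the test was common. In bulk RNA, a change in the number of cells that make a transcript and a change in the RNA of each cell cannot be told apart.

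The 4 TIMP genes are relatives. Between pairs of them, 40.1% to 49.3% of aligned residues of the encoded proteins were identical, and each encoded protein held 12 cysteines from its first cysteine-any-cysteine motif onward. The coding bases that start at this motif are shown because they encode the inhibitory end of the mature protein, with the 2 cysteine codons in capitals (GENCODE M21, GRCm38, 5′ to 3′).
Timp1: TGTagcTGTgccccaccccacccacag
Timp2: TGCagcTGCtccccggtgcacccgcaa
Timp3: TGCacaTGCtctcccagccatccccag
Timp4: TGCagcTGTgcgcctgcgcacccccag
For the transcript of each gene with the longest coding sequence, the longest run of bases shared by any pair was 18 bases, between Timp3 and Timp4, so a longer read cannot match 2 of these transcripts exactly.

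Timp1, Timp2 and Timp3 were each higher in the c-FOS libraries, and Timp4 and Reck were not detected in either group. Being called higher was common, at 33.8% of all genes tested. Timp1, an inhibitor of most secreted MMPs that is also known as a growth factor for several cell types, was at 3.63 and 3.37 CPM in the control libraries and at 88.8 and 84.0 CPM in the c-FOS libraries. The 2 libraries of each group lay close together. The rise was 24.6-fold, or 4.62 ± 0.08 (SE) on the log2 scale, at a Benjamini-Hochberg adjusted p of 6.73e-15 by edgeR quasi-likelihood. Of the 12791 genes tested, Timp1 had the 110th highest fold change.

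Timp3, the TIMP that is held in the matrix and that also inhibits ADAM17 and the aggrecan-cleaving ADAMTS proteases, was at 1768 and 1930 CPM in the control libraries and at 6948 and 6747 CPM in the c-FOS libraries. The gap between the groups was far larger than that between replicates. Timp3 rose 3.70-fold, or 1.89 ± 0.05 (SE) on the log2 scale, at a Benjamini-Hochberg adjusted p of 3.01e-13 by edgeR quasi-likelihood.

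Timp2, which inhibits MMPs and also links latent MMP2 to the membrane protease MMP14 for activation, was at 1486 and 1467 CPM in the control libraries and at 2979 and 2969 CPM in the c-FOS libraries. This was the most even of the 3 detected genes between replicates. It rose 2.01-fold, or 1.01 ± 0.04 (SE) on the log2 scale, at a Benjamini-Hochberg adjusted p of 1.34e-11 by edgeR quasi-likelihood. Over the 4 possible pairs of a c-FOS and a control library, the log2 ratio of CPM lay between 1.00 and 1.02 for Timp2, between 1.81 and 1.97 for Timp3 and between 4.53 and 4.72 for Timp1. These ranges do not overlap, so the order of the rises, Timp1 before Timp3 before Timp2, held in every pair.

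**Figure D1:**
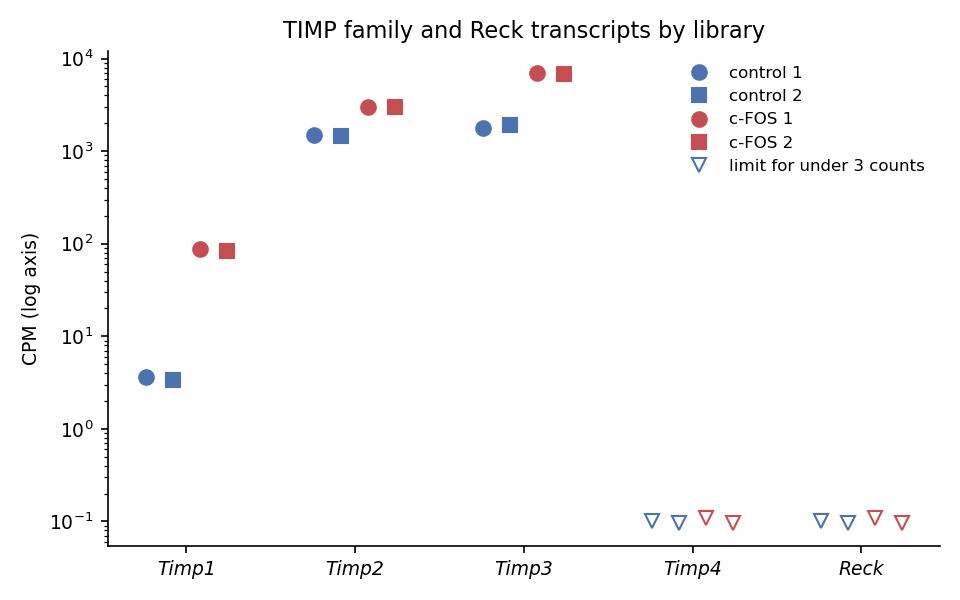
CPM of each gene in each library on a log axis, with circles for replicate 1 and squares for replicate 2. Open triangles mark the CPM that 3 counts would give where a gene had fewer than 3 counts. Timp1, Timp2 and Timp3 were called higher with c-FOS, and Timp4 and Reck show limits only. Of all genes tested, 33.8% were called higher with c-FOS.

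Timp4, the TIMP known mainly from heart, brain and fat, had 0 counts in all 4 libraries. Reck had 0.5 counts in control replicate 1 and 0 in the other libraries. A count of 0 allows a level of up to 0.0491 CPM over the control group and 0.0510 CPM over the c-FOS group (3 counts over the group, counting error only). With 0.5 counts of Reck in the control, the limit for that group holds for Timp4 only. Neither gene was tested, and no fold change is given for them. Relative to gene model length, the single-library limit for Timp4 was 0.0329 to 0.0370 CPM per kb, against 3.83 and 4.13 CPM per kb for Timp1, the lowest of the detected TIMPs, in the control libraries.

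Levels can be compared between genes only per length, so CPM was divided by the gene model length in the deposited table. In the control libraries, Timp2 (408.5 ± 3.68 CPM per kb; SD, n = 2) and Timp3 (395.6 ± 24.5 CPM per kb) stood side by side. Their order was not the same in the 2 control libraries, so they did not differ beyond the spread. Timp1 was far lower at 3.98 ± 0.211 CPM per kb: the ratio of Timp2 to Timp1 was 99.5 and 105.9 in the control libraries. With c-FOS, Timp3 (1465 ± 30.4 CPM per kb) stood above Timp2 (822.6 ± 1.89) in both libraries, and Timp1 was at 98.3 ± 3.89 CPM per kb. The ratio of Timp2 to Timp1 was then 8.16 and 8.60.

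The make-up of the TIMP pool differed between the groups. Timp2 gave 51.8% and 49.3% of the summed per-length TIMP level in the control libraries and 34.2% and 34.8% in the c-FOS libraries. Timp3 gave 47.7% and 50.2% against 61.6% and 61.2%. Timp1 gave 0.521% and 0.466% against 4.19% and 4.05%. For each of the 3 shares the groups did not overlap, but with 2 against 2 libraries the smallest p an exact permutation test can give is 0.333. Timp2 and Timp3 were among the most abundant transcripts per length: Timp3 ranked 63rd and 50th of the 12791 tested genes in the control libraries and 9th in both c-FOS libraries. Timp2 ranked 50th and 51st, then 18th and 19th. Timp1 ranked 9046th and 9207th in the control libraries and 568th and 621st with c-FOS.

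The proteases that TIMPs bind were looked at next. The numbers of genes called, here and in the lists below, stand beside 67.1% of all genes tested that passed. Of all genes tested, 33.8% were higher and 33.3% lower. Of 17 secreted MMP genes, 8 passed the filter on low counts and were tested, and 5 of these rose, 1 fell and 2 missed the threshold. Their median log2 fold change was 2.14, against -0.01 over all genes tested. Mmp13, an interstitial collagenase, was at 0.824 and 0.734 CPM in the control libraries and at 111.4 and 126.6 CPM with c-FOS. Mmp10, the stromelysin of migrating keratinocytes, was at 1.26 and 1.28 CPM and at 176.4 and 185.9 CPM. For both genes the groups were far apart beside the gap between replicates, with log2 fold changes of 7.24 ± 0.11 and 7.14 ± 0.08 (SE). Mmp12, an elastase best known from macrophages, and the stromelysin gene Mmp3 rose by 6.48 and 2.85 on the log2 scale. The fifth, Mmp19, rose from a very low level, 0.174 ± 0.0874 to 0.480 ± 0.120 CPM (SD, n = 2 per group). Its call was lost in DESeq2 (adjusted p = 0.197), without control replicate 2 (log2 fold change 1.05, edgeR adjusted p = 0.0974) and with c-FOS replicate 2 left out (1.12, edgeR adjusted p = 0.217, within 0.00886 to 0.217 over the alternatives). Mmp11, stromelysin-3, was the 1 gene that fell, by 0.38 on the log2 scale. Mmp2, the gelatinase that TIMP2 and MMP14 act on, was at 5.34 ± 0.257 and 4.79 ± 0.0145 CPM and did not pass (-0.16 on the log2 scale, edgeR adjusted p = 0.278); scaled by library totals it passed as lower (-0.30, edgeR adjusted p = 0.0480, within 0.0480 to 0.632 over the alternatives). Mmp12, Mmp3, Mmp19 and Mmp2 are named outside the fixed naming rule, after their values were seen.

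Of 6 membrane-bound MMP genes, 2 were tested and both rose. Mmp14, the main membrane-bound collagenase and a target of TIMP2 and TIMP3 but only weakly of TIMP1, was at 364.4 and 361.0 CPM in the control libraries and at 594.5 and 596.4 CPM with c-FOS. It rose by 0.72 ± 0.03 (SE) on the log2 scale, at a Benjamini-Hochberg adjusted p of 3.56e-10 by edgeR quasi-likelihood. Mmp15 rose by 0.34 ± 0.05.

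Summed per length, TIMP and MMP transcripts rose by nearly the same factor. The TIMP sum was 793.5 and 822.7 CPM per kb in the control libraries and 2412 and 2360 with c-FOS, a 2.95-fold difference. The sum over the 23 MMP genes was 152.3 and 149.2 CPM per kb against 444.3 and 463.9, a 3.01-fold difference. The ratio of the TIMP sum to the MMP sum was 5.21 and 5.51 in the control libraries and 5.43 and 5.09 with c-FOS. The groups overlapped, and the difference between 5.36 ± 0.213 and 5.26 ± 0.241 (SD, n = 2 per group) had p = 0.667 in a two-sided exact permutation test, which with this design cannot go below 0.333 and does not show that the ratios are alike. Being taken within a library, the ratio does not depend on the scaling between libraries, but it depends on the gene model lengths: on summed CPM without division by length it was 6.11 and 6.52 in the control libraries and 7.28 and 6.85 with c-FOS, where the groups did not overlap.

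The make-up of the MMP pool differed between the groups too. Mmp14 made up 63.2% and 63.8% of the per-length MMP sum in the control libraries and 35.3% and 33.9% with c-FOS. Mmp10 made up 0.481% and 0.497% against 23.1% and 23.3%, and Mmp12 0.608% and 0.762% against 20.2% and 20.4%. Against secreted MMPs alone, the TIMP sum was 21.2 and 22.1 times as high in the control libraries and 9.08 and 8.32 times as high with c-FOS. Against Mmp14 alone, Timp2 was 4.27 and 4.26 times as high in the control libraries and 5.25 and 5.22 times as high with c-FOS, per length. These are transcript ratios, and protein amounts were not measured.

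**Figure D2:**
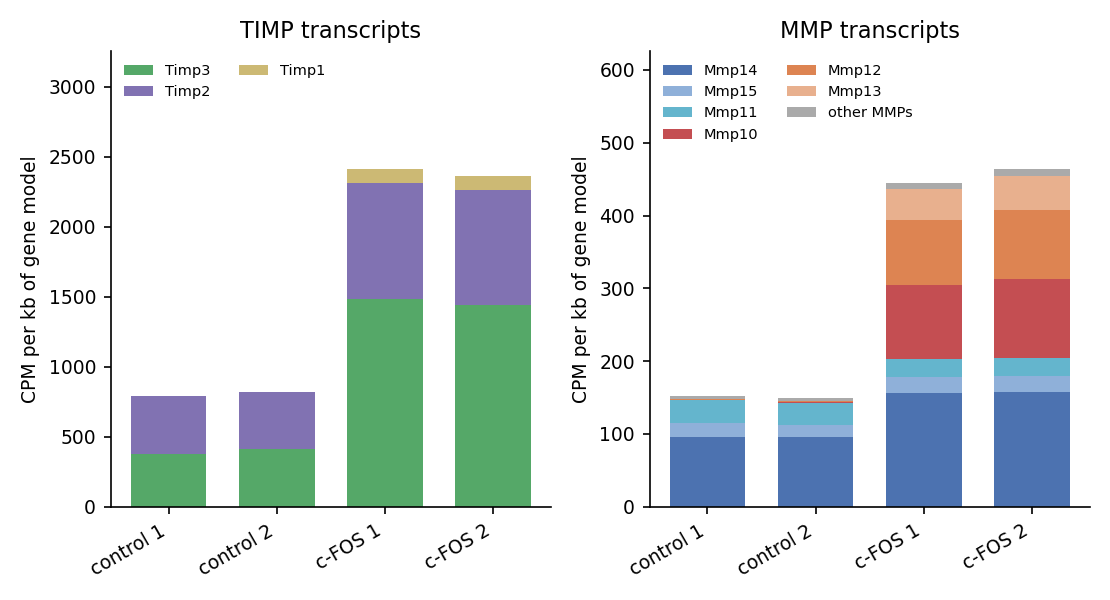
Summed CPM per kb of gene model of TIMP transcripts (left) and MMP transcripts (right) in each library, stacked by gene; the 2 vertical axes have different scales and both start at 0. The TIMP stacks reach 793.5 and 822.7 in the control and 2412 and 2360 in the c-FOS libraries, where a Timp1 band becomes visible, and in the MMP stacks bands of Mmp10, Mmp12 and Mmp13 appear above Mmp14.

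**Figure D3:**
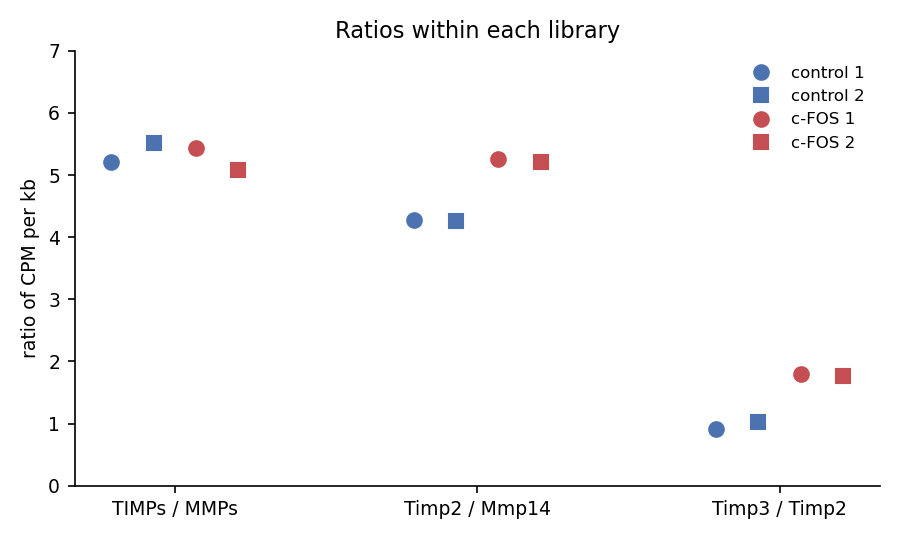
Ratios of CPM per kb within each library for the TIMP sum over the MMP sum, Timp2 over Mmp14 and Timp3 over Timp2; circles are replicate 1 and squares replicate 2. The first ratio overlaps between the groups, between 5.09 and 5.51, whereas the c-FOS points lie above the control points for the other ratios.

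Among 9 ADAM and ADAMTS genes whose products TIMPs can inhibit, TIMP3 above all, 6 were tested: 3 rose, 2 fell and 1 missed the threshold (median 0.19 on the log2 scale). Adam12, a membrane protease known from muscle and tumours, was at 13.3 and 17.8 CPM in the control libraries and at 349.7 and 349.1 CPM with c-FOS, a log2 fold change of 4.48 ± 0.08 (SE). Adamts4, an aggrecan-cleaving protease, rose by 3.33 on the log2 scale, whereas Adamts5, another one, fell by 0.52 and Adamts1 fell by 1.09. Adam17, the sheddase of TNF and EGF-family ligands, did not pass (57.0 ± 2.48 and 57.2 ± 1.07 CPM; SD, n = 2 per group); with library totals it passed as lower (-0.13, edgeR adjusted p = 0.0298, within 0.0298 to 0.989 over the alternatives). Adam17 is named outside the naming rule, as the best-known ADAM target of TIMP3.

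Most MMPs are made as latent enzymes, and of 8 genes for their activators 6 were tested. Of these, 5 rose and 1 fell, with a median of 0.49 on the log2 scale, beside 67.1% of all genes that passed. Plaur, the receptor that holds urokinase at the cell surface, was at 0.471 and 0.942 CPM in the control libraries and at 66.2 and 66.3 CPM with c-FOS, a log2 fold change of 6.51 ± 0.13 (SE), which was 7.13 without control replicate 2. Plat, the tissue-type plasminogen activator, rose by 1.36 on the log2 scale, and the proprotein convertase gene Pcsk6 fell by 0.41, a call that was lost in DESeq2 (adjusted p = 0.0603, within 0.000320 to 0.0603 over the alternatives). Other inhibitors were nearly absent: of 8 genes for alpha-2-macroglobulin relatives, Tfpi2 and testicans, 5 had 0 counts in all libraries, and Spock2 was the 1 gene tested and did not pass (0.22 on the log2 scale, edgeR adjusted p = 0.723).

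**Figure D4:**
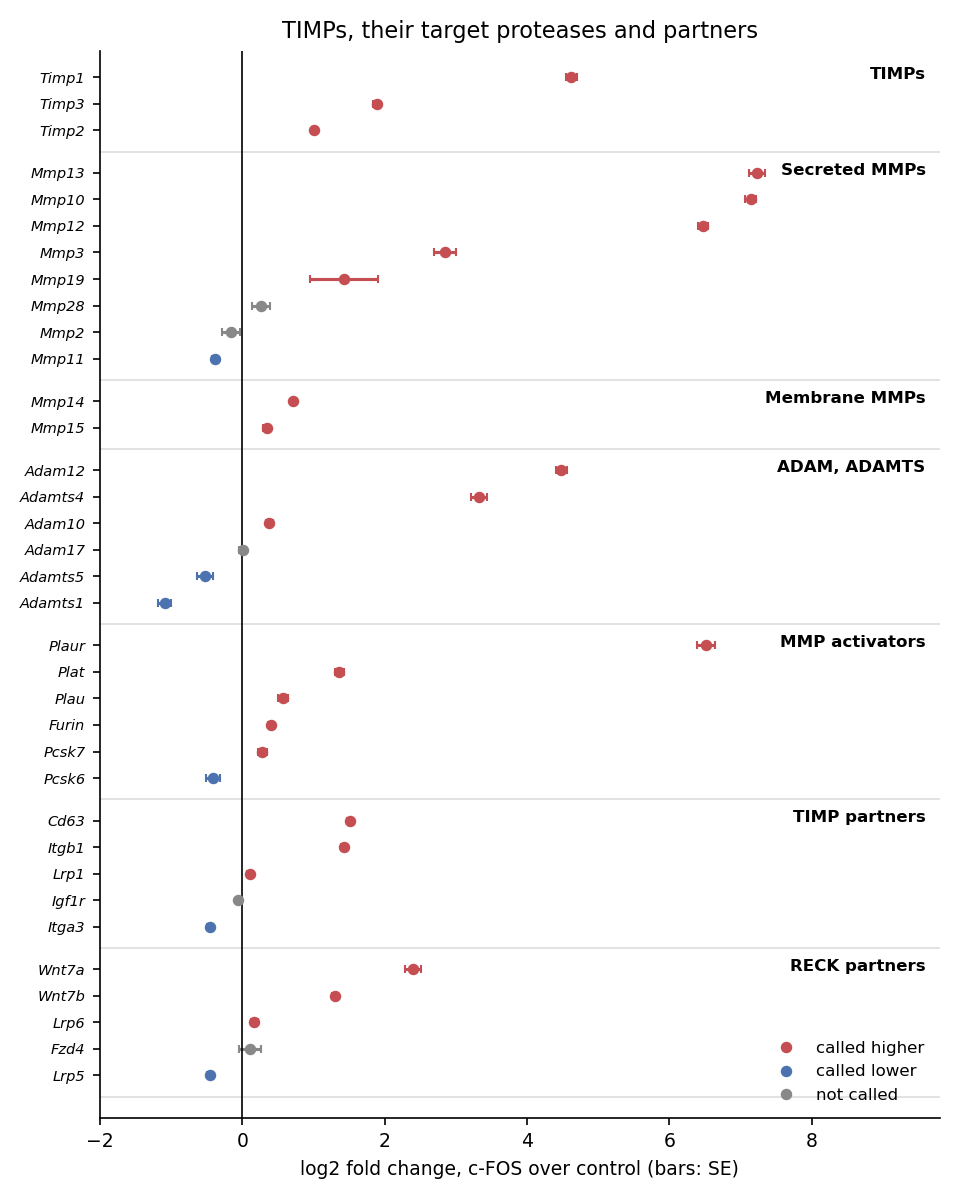
Log2 fold changes of c-FOS over control with their SE for the tested TIMP genes and for tested genes of 6 related lists; red was called higher, blue lower and grey not called. Timp1 lies at 4.62, between the secreted MMP genes Mmp10, Mmp12 and Mmp13 above 6 and Mmp3 at 2.85, and Timp2 and Timp3 lie between 1.01 and 1.89.

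Proteins that bind TIMPs outside proteases were also looked at. Of 8 such genes, 5 were tested: 3 rose, 1 fell and 1 did not pass. Cd63, a tetraspanin that serves as a surface receptor for TIMP1, was at 72.9 and 74.0 CPM in the control libraries and at 204.4 and 215.5 CPM with c-FOS, a log2 fold change of 1.52 ± 0.04 (SE). Itgb1 and Itga3 encode the chains of the integrin that binds TIMP2. They moved apart: Itgb1 rose by 1.44 and Itga3 fell by 0.46 on the log2 scale. The third gene that rose, Lrp1, which encodes the receptor that clears TIMPs and MMPs from outside the cell, rose by only 0.10 (edgeR adjusted p = 0.0191). That call was lost when c-FOS replicate 1 was left out (edgeR adjusted p = 0.202) or c-FOS replicate 2 (0.111), with the replicate number as a block (0.0569) and with upper-quartile factors (0.313), and the sign turned with library totals (-0.032). Over its alternatives the adjusted p of Lrp1 lay between 0.000515 and 0.434. Igf1r, the receptor for insulin-like growth factors, was at 309.7 ± 4.57 CPM in the control and 297.7 ± 2.69 CPM in the c-FOS libraries (SD, n = 2 per group) and did not pass (-0.057 on the log2 scale, edgeR adjusted p = 0.176, within 0.000260 to 0.567 over the alternatives). It passed as lower with library totals (-0.19, edgeR adjusted p = 0.000260), with upper-quartile factors (-0.12, 0.00960) and without control replicate 1 (-0.071, 0.0412), and it is named outside the naming rule. Kdr and Efemp1, which encode partners of TIMP3, had 0 counts in all libraries.

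RECK also acts with the receptor ADGRA2 to pass on Wnt7 signals. Reck and Adgra2 were at or near 0, with 4 counts of Adgra2 in control replicate 1 and 0 in the other libraries, while the ligand genes were expressed. Wnt7b was at 110.0 and 112.3 CPM in the control libraries and at 265.2 and 285.4 CPM with c-FOS, and Wnt7a rose by 2.40 ± 0.11 (SE) on the log2 scale. The co-receptor gene Lrp5 fell by 0.45. Of the 6 listed genes, 5 were tested, of which 3 rose, 1 fell and 1 did not pass. The third riser, Lrp6 (0.17), was not called with library totals (0.03, adjusted p = 0.579), upper-quartile factors (0.11, adjusted p = 0.0721) or with c-FOS replicate 1 left out (0.12, edgeR adjusted p = 0.141), within 1.44e-10 to 0.579 over the alternatives.

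Several TIMP genes lie inside genes for synapsins, neuronal vesicle proteins, on the opposite strand: Timp1 in Syn1 on chromosome X, Timp3 in Syn3 on chromosome 10 and Timp4 in Syn2 on chromosome 6 (GENCODE M21). Timp2 on chromosome 11 overlaps Cep295nl on its own strand. Whether the counting used strand is not stated in the sources used, and in this annotation Timp3 and Syn3 share 1733 exonic bases, whereas Timp1 and Syn1, and Timp2 and Cep295nl, share 0. Syn3 had 21 and 19.5 counts in the control libraries and 42 and 53 with c-FOS, against 52579 to 208981.5 counts of Timp3. Syn3 passed as higher (1.26 ± 0.26 on the log2 scale), but without strand the reads of the shared bases cannot be told apart. Its values are therefore uncertain, and whether such reads were left out of Timp3 was not tested. Syn1 had 1.5 and 1 counts in the control and 14.5 and 17.5 in the c-FOS libraries. On rounded counts summed by group, 3 against 33, the ratio scaled by library size was 11.4. Its exact 95% counting interval was 3.58 to 58.2. Cep295nl rose by 0.86 on the log2 scale. The Cep295nl call was lost in DESeq2 (adjusted p = 0.0622) and with c-FOS replicate 2 left out (edgeR adjusted p = 0.0507), within 0.000255 to 0.0622 over the alternatives. Timp4 and Syn2 share 90 exonic bases; Timp4 was at 0, and Syn2 had 1 count in c-FOS replicate 1 and 0 in the other libraries. Syn1, Syn3 and Cep295nl were each at least an order of magnitude below the TIMP gene they overlap in the c-FOS libraries.

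AP-1 dimers, which FOS proteins form with JUN proteins, bind a short DNA motif. The RefSeq promoters of the 5 genes (GRCm38.p6, 250 bases before to 50 after the start) were searched on both strands for TGANTCA, the AP-1 consensus, TGANGTCA, the related site of CREB and ATF dimers, and TGAGTAA, a variant of the AP-1 site. The first was found in 7.81%, the second in 8.83% and the third in 2.68% of all 32851 promoters of this length. None of the 3 was found in the promoters of Timp2, Timp3, Timp4 or Reck. The promoter of Timp1 held no match to TGANTCA or TGANGTCA. There was 1 match, to TGAGTAA, whose first base is base 27 after the start site. It is shown with its surroundings, on the plus strand at chrX:20870182-20870209, with the match in capitals.
Timp1: ggtgggtggaTGAGTAAtgcgtccagga
A match of letters is a description of this window and no measure of binding. The variant TGAGTAA was picked for this search, so its match in Timp1 is no independent support for a link to c-FOS. The promoters also differed in base composition, with 69.3% G and C in Reck, 68.7% in Timp2, 67.0% in Timp3, 55% in Timp1 and 53.3% in Timp4, against a median of 52.7% over all promoters.

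Genes with a profile most like that of each TIMP were found by the distance of centred log2 CPM (prior count 2) over the 4 libraries. For Timp2 they were Pcdh7, Mast4 and Myh9, with distances of 0.0108 to 0.0220 and log2 fold changes of 1.01 to 1.02. For Timp3 they were Arid5a, Wisp1 and Flt1, with distances of 0.0248 to 0.0484 and log2 fold changes of 1.85 to 1.89. For Timp1 they were the proliferin genes Prl2c4 and Prl2c3 and the gene Fam167a, at distances of 0.118, 0.118 and 0.179. Their log2 fold changes were 8.63, 8.63 and 4.56. Both proliferin genes were at 0 in the control libraries, so their likeness rests on the prior count, and as near-identical copies they can share reads. Fam167a went from 4.24 to 100.5 CPM in the group means. With 4 libraries in 2 groups, such likeness mostly restates the size of the change in log2 CPM with the prior count. For the proliferin genes that size differs from the fitted log2 fold change.

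Markers of other cell types were also counted, and several moved with the TIMP genes. Of 8 fibroblast markers, 4 were tested and 3 rose; the remaining one, Col1a1 (0.83 on the log2 scale), passed as higher only with control replicate 1 left out (1.44). Their summed level was 5.40 and 5.65 CPM in the control and 17.6 and 19.1 CPM in the c-FOS libraries, against 3258 and 3401 CPM and 10016 and 9800 CPM for the sum of the TIMP and Reck genes. The 3 that rose were Pdgfrb (9.33 on the log2 scale), Col1a2 (2.67) and Pdgfra (1.45). Pdgfrb had 0 counts in both control libraries and 75.5 and 82 counts with c-FOS. Pdgfra made most of the rise in the sum (4.24 and 4.23 against 11.3 and 11.9 CPM). Thy1 was at 0 in all libraries, and Lum and Col3a1 had at most 1 count in any library. Dcn, which was too low to be tested, had 8.5 and 18.5 counts in the control libraries and 4 and 3.5 counts with c-FOS, so it was lower where the sum was higher. Of 6 endothelial markers, 4 were tested, 3 rose and 1 fell, with sums of 117.3 and 116.8 against 218.9 and 214.1 CPM. Flt1 made most of that rise (29.2 and 32.6 against 113.1 and 109.5 CPM). Kdr was at 0 and Cdh5 had at most 1 count. The 6 macrophage and leukocyte markers summed to 18.8 and 17.0 against 41.4 and 44.9 CPM. Ptprc had at most 2.5 counts in any library. The 3 markers tested all rose, and Csf1r made most of the rise in the sum (0.387 and 0.224 against 18.4 and 18.5 CPM). Cd68, 1 of these 3, lost its call when c-FOS replicate 2 was left out (edgeR adjusted p = 0.0617, within 4.17e-05 to 0.0617 over the alternatives). Of 4 melanocyte markers, 2 were tested and neither passed, and Tyr was at 0. Scaled by library totals, the 2 tested melanocyte markers Mitf and Pmel passed as lower (edgeR adjusted p = 0.0217 and 0.0400, up to 0.969 and 0.439 over the alternatives). The 5 basal keratinocyte markers summed to 26473 and 26376 CPM in the control and 12866 and 13218 CPM in the c-FOS libraries. The part of these markers in the TIMP values was not tested.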

How the data were processed

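RNA-seq of 4 libraries was used, 2 per group. Per the labels, total RNA was made into libraries with an Illumina TruSeq RNA kit. Reads were aligned with TopHat and analysed with HOMER on mm9, with DESeq2 also among the tools, per the submitters' processing notes (versions, gene annotation and strand setting: not stated in the sources used). The authors' deposited table gives expected counts per gene symbol in steps of 0.5, not normalized, and a gene model length. Of 24909 rows, 2 repeated a symbol (the row with the higher total was kept).

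Counts were rounded, with 0.5 going up. Genes were kept by filterByExpr (minimum count 10, total at least 15), scaled by TMM and tested two-sided by quasi-likelihood in edgeR 4.0.16 under R 4.3.3, with Benjamini-Hochberg adjustment over 12791 genes at 0.05. The fit drew the variance of each gene toward that of all genes (prior degrees of freedom 11.3, residual 2). The fit was also run on simulated counts in which far fewer genes changed than were called here. That run does not cover a change this broad. CPM uses unrounded counts over the effective (TMM) library size, CPM per kb divides this by model length, and SE derives from the F statistic. Total counts ranged from 28405433 to 32465409. Replicates differed by more than sampling noise (chi-square per degree of freedom 4.82 and 1.93). Members, lists and tests were chosen with earlier results of these data known. From each list the 2 highest and 2 lowest genes that passed were named. Alternatives were other scalings, filters, DESeq2 1.42.0, the replicate number as a block and each library left out. Coding and promoter sequences are from GENCODE M21 and RefSeq GRCm38.p6; since the files use mm9, other coordinates are not given.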

Additional observations from a re-analysis of the deposited data

How the results depend on the processing

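Timp1, Timp2 and Timp3 stayed higher with c-FOS and past the threshold in all 11 alternatives, so 3 of the 5 genes were called in each. Their log2 fold changes ranged from 4.48 (library totals) to 4.67 for Timp1, from 0.87 (library totals) to 1.02 for Timp2 and from 1.75 (library totals) to 1.95 for Timp3. Library totals moved the median of all genes to -0.14 and the share of called genes that were higher from 50.3% to 35.4%. The count of genes called in all lay between 7096 (DESeq2) and 9096 (library totals). With the replicate number as a block, 8464 genes and the 3 TIMP genes were called (Timp1 4.62, Timp2 1.01, Timp3 1.89); the labels do not say that a number marks a shared culture, and the deviations of same-numbered libraries correlated at -0.0690. Of the synapsin and nested genes, 1 was called instead of 3 with a minimum count of 50, because fewer genes were tested. The fold of the TIMP to MMP ratio, c-FOS over control, was 0.980. In alternatives chosen after seeing the data, it was 1.12 without division by length, 0.402 with secreted MMP genes only, and 0.949 to 1.01 with 1 library left out. For 54 genes of the lists, 556 of 588 values kept direction and side of the threshold, 14 lost the call, 7 gained one and 11 turned in sign. Those that turned were Mitf (-0.051 to 0.033 with 1 library left out), Adam17 (-0.13 with library totals, -0.057 with upper-quartile factors, -0.037 to 0.052 with 1 library left out), Spock2 (-0.27 to 0.92 with 1 library left out), Fzd4 (-0.028 with library totals, -0.062 to 0.31 with 1 library left out) and Lrp1 (-0.032 with library totals); the cause was not tested. A fit without 1 library assumes that the lone library of its group varies like the others. With 2 libraries a group, no ratio or share could reach an exact permutation p below 0.333. Timp4 and Reck were at or near 0 counts, so no fold change was tested for them.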
